A study of Mus musculus with 2 samples.

Results

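Cells that carried transcripts of 3 dorsal forebrain regulators, Emx2, Lhx2 and Pax6, were described in neurospheres grown from the embryonic mouse forebrain. The cells were selected on UMI counts, the numbers of distinct tagged molecules. A cell was taken if it had 500 or more detected genes, at most 10% of its UMIs from mitochondrial genes, 2000 or more UMIs in all, 2 or more UMIs summed over Emx2, Lhx2 and Pax6, and 0 UMIs of the ventral forebrain genes Nkx2-1, Dlx1 and Dlx2. This rule found 409 cells among the 3055 that passed the filters on genes, mitochondrial share and depth, or 13.4% (95% exact binomial interval 12.2 to 14.7). They are called selected cells here. They were set against 1773 comparison cells with 0 UMIs of all 6 genes. A further 696 cells had 1 UMI of the 3 dorsal genes, 39 had 2 or more but also a ventral UMI, and 138 had fewer than 2 and a ventral UMI.

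All cells came from CD1 mouse embryos, and the labels give no allele and no treatment other than the culture medium. The walls of the lateral ventricles were taken after the cortex had been peeled back, dissociated, and grown without serum in a medium with 10 ng/mL of LIF (leukemia inhibitory factor), in which spheres of 50 μm or more were counted as primitive neural stem cell spheres. The medium also held an additive that the labels call EFH and do not spell out, and the age of the embryos is not stated there. Transcripts were measured by Drop-seq, which tags the polyadenylated RNA of single cells or nuclei in droplets. The labels describe dissociated spheres while the series text names nuclei. The 2 labelled samples, both of this 1 culture condition, were pooled in a table of 4000 barcodes that carries no sample names. Barcodes shared between the libraries could therefore not be counted. The table was read as 1 sample without replicates, so no test was possible. Every interval given is a 95% interval of counting error only, and those of the neighbour ratios below do not cover all of it.

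The dorsal telencephalon, or pallium, is the part of the embryonic forebrain that forms the cerebral cortex and hippocampus, and the ventral part, the subpallium, forms the striatum and most inhibitory neurons. Emx2 encodes a homeodomain factor of pallial progenitors that promotes caudal and medial cortical identity. Lhx2 encodes a LIM homeodomain factor needed for cortical rather than hem fate, and Pax6 a paired and homeodomain factor of radial glia that holds the border with the subpallium. Nkx2-1, Dlx1 and Dlx2 encode regulators of the subpallium. In GENCODE release M21 (GRCm38, the build called mm10), Emx2 lies on chromosome 19 from 59458372 to 59465357, Lhx2 on chromosome 2 from 38339281 to 38369733 and Pax6 on chromosome 2 from 105668900 to 105697364, all on the plus strand.

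The selected cells stood apart from the comparison cells most clearly in genes of mitosis, while other dorsal forebrain genes were at a like level. At an equal depth of 2000 UMIs per cell, the summed level of 56 G2 and M phase genes was 1.502 times that of the comparison cells (1.47 to 1.54), and 1.39 times (1.35 to 1.44) among cells matched on depth. The summed level of 25 dorsal genes outside the rule was 0.965 times (0.883 to 1.05), and 1.01 times (0.897 to 1.13) after matching. Olig1 and Olig2, ventral and oligodendrocyte lineage factors, were at 0.838 times (0.791 to 0.887), and 91.2% of selected and 93.5% of comparison cells held a UMI of at least 1 of them at that depth. The name of dorsal forebrain progenitors was thus not borne out by genes that had no part in choosing the cells. Most of the dorsal ones held few UMIs, and the cells are named by the rule alone.

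The selection was shallow in the genes that defined it. Emx2 was detected in 328 of the 409 selected cells (80.2%), Lhx2 in 192 (46.9%) and Pax6 in 132 (32.3%). Emx2 alone met the rule in 137 cells, Lhx2 alone in 32 and Pax6 alone in 20, while 220 cells held UMIs of more than 1 gene. Emx2 with Lhx2 was found in 108 cells, Emx2 with Pax6 in 60, Lhx2 with Pax6 in 29, and all 3 in 23 cells (5.62%, 3.598 to 8.32). The smallest sum allowed, 2 UMIs, accounted for 265 cells (64.8%), 3 UMIs for 84, and 4 or more for 60, with single cells at 11 and 14 UMIs. These counts are what the rule fixed and are a description only.

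**Figure D1:**
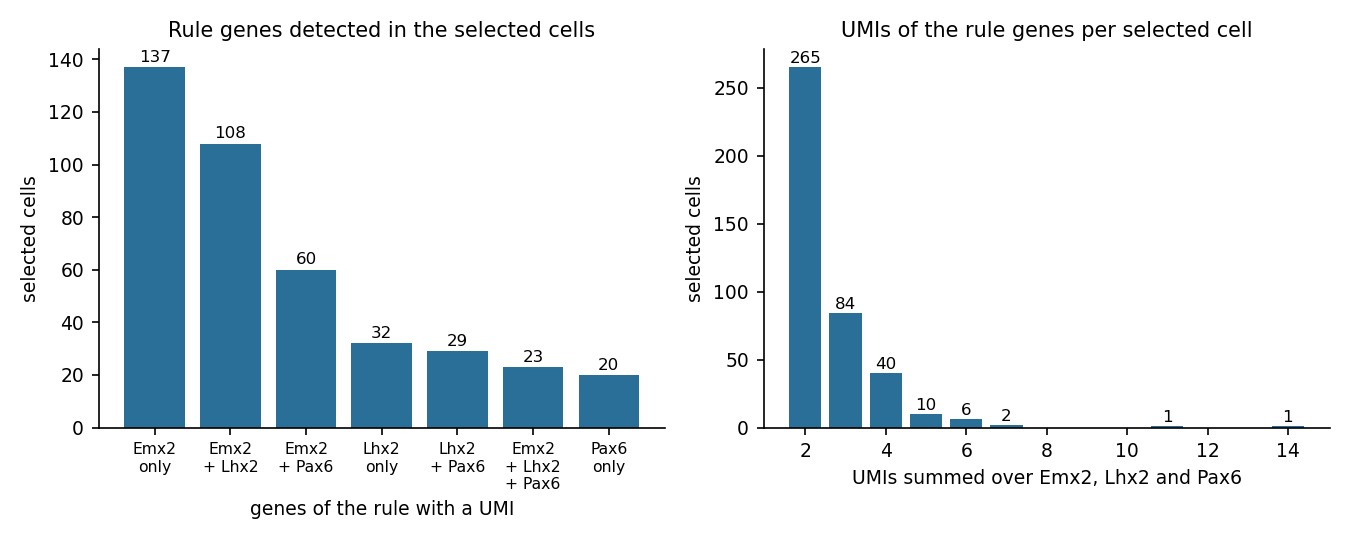
Number of selected cells (vertical axes) by which of the 3 rule genes had a UMI (left) and by the UMIs summed over the 3 genes (right). Emx2 only was the most frequent combination, with 137 cells, and 265 of 409 cells sat at the smallest sum the rule allows.

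Over all 3055 cells, Emx2 had 1067 UMIs in 750 cells (24.6%, 23.0 to 26.1), Lhx2 519 UMIs in 442 cells (14.5%, 13.2 to 15.8) and Pax6 330 UMIs in 266 cells (8.71%, 7.73 to 9.76). To look for stray RNA, 25 cells with 4 or more UMIs of the neuronal genes Dcx, Stmn2, Elavl3, Elavl4, Gad1 and Gad2 were read the same way. They are not a separate group: 4 were selected cells, which hold dorsal UMIs by the rule, 10 comparison cells and 7 cells with 1 dorsal UMI. Of these neuronal cells 8 had an Emx2 UMI (32.0%, 14.9 to 53.5), 6 an Lhx2 UMI (24.0%, 9.36 to 45.1) and 1 a Pax6 UMI (4%, 0.101 to 20.4), at a median depth of 3842 UMIs against 4493 over all cells. At equal depth the Emx2 share was 4% (0.101 to 20.4) in the neuronal cells and 10.2% (9.19 to 11.4) in all cells. These 25 cells were not free of progenitor transcripts: in full counts 88% had a UMI of Fabp7 (68.8 to 97.5), 76% of Olig1 or Olig2 (54.9 to 90.6) and 60% of Sox2 (38.7 to 78.9). They are therefore no clean measure of stray RNA, and how much of the Emx2, Lhx2 and Pax6 UMIs came from it was not tested.

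Depth separated the groups. The selected cells had a median of 6729 UMIs (2169 to 54060) and 2857 genes, the comparison cells 3953 UMIs (2000 to 21723) and 2013 genes, and the cells with 1 UMI 5144 UMIs. The selected share of cells climbed with depth, from 4.69% (3.16 to 6.66) of cells with 2000 to 3000 UMIs, to 7.74% at 3000 to 5000, 17.0% at 5000 to 8000 and 32.5% (28.2 to 36.9) at 8000 or more. When the rule was applied to counts thinned to 2000 UMIs, 77 cells met it (2.52%, 1.99 to 3.14). Just outside the rule's limit on depth, 13 of 710 cells with fewer than 2000 UMIs met its other conditions, and just inside it 10 selected cells lay less than 500 UMIs above the limit. The median mitochondrial share was 2.76% in the selected and 2.94% in the comparison cells, and the ribosomal protein share at equal depth 8.38% and 8.65%. The nuclear RNA Malat1 was at 2776 and 3146 CPM (the UMIs of a gene per 1000000 UMIs), and a list of nuclear RNAs that holds it was at 0.887 times the comparison level (0.851 to 0.925), and at 0.930 times (0.881 to 0.981) in matched cells. Of the selected barcodes 36 ended in an unread base, and no 2 selected barcodes differed by a single base. Readings at equal depth use 2000 UMIs drawn at random from every cell. Unless full counts are named, the values below are such readings. Where values in matched cells are given, they come from 384 pairs of selected and comparison cells within 10% of each other in total UMIs, whose medians were 6496 and 6506. The remaining 25 selected cells had no partner of like depth.

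The 3 dorsal genes were not seen to mark the same cells once depth was equal, on few UMIs. Each gene was read in cells chosen by the other 2, a reading the choice did not use. Emx2 stood at 55.6 CPM in the 126 cells with 2 or more UMIs of Lhx2 and Pax6 and at 55.8 CPM in the 2278 cells with none, a ratio of 0.997 (0.537 to 1.703). Lhx2 stood at 33.3 CPM in 285 cells chosen by Emx2 and Pax6 against 29.4 CPM, a ratio of 1.13 (0.659 to 1.85). Pax6 stood at 20 CPM in 325 cells chosen by Emx2 and Lhx2 against 17.6 CPM, a ratio of 1.14 (0.576 to 2.08). These readings rest on 14, 19 and 13 UMIs in the chosen cells, and their intervals allow ratios up to 1.703, 1.85 and 2.08. In pairs matched on depth the ratios were 1.08, 1.2 and 0.80, with intervals that all include 1. In full counts without matching, the ratios were 1.04 (0.806 to 1.33) for Emx2, 1.29 (1.003 to 1.65) for Lhx2 and 1.58 (1.18 to 2.10) for Pax6. In full counts of matched pairs they were 1.12 (0.770 to 1.64), 1.19 (0.841 to 1.69) and 1.11 (0.736 to 1.67).

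Pairs of genes gave the same picture. In full counts, Lhx2 was found in 18.8% of cells with Emx2 (16.0 to 21.9) and in 12.7% of cells without it (11.4 to 14.2), but the former had a median of 5911 UMIs and the latter 4132. At 2000 UMIs per cell the shares were 6.10% (3.66 to 9.47) and 5.92% (5.04 to 6.90). Pax6 was found at equal depth in 5.08% of cells with Emx2 (2.87 to 8.25) and 3.41% without (2.74 to 4.18). Pax6 was found in 1.75% of cells with Lhx2 (0.363 to 5.04), or 3 of 171 cells, and in 3.69% of those without (3.02 to 4.47). Each interval at equal depth overlaps that of its counterpart.

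**Figure D2:**
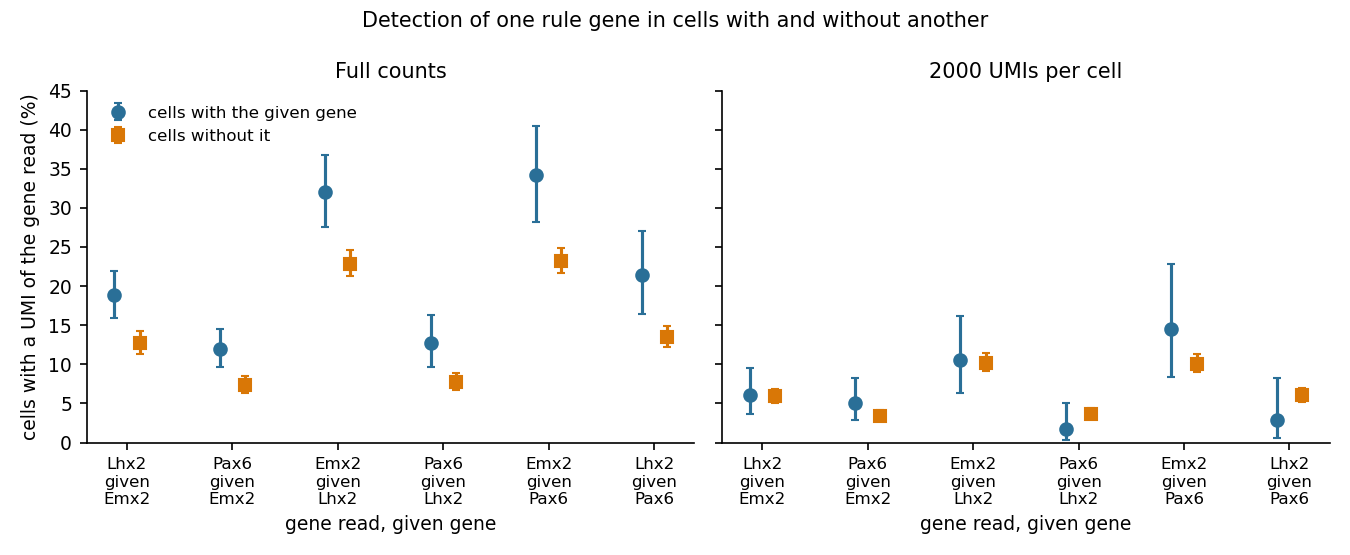
Percent of cells with a UMI of 1 rule gene (vertical axis) among cells with a UMI of another (circles) and without it (squares), in full counts (left) and at 2000 UMIs per cell (right); bars are 95% exact binomial intervals. In full counts every circle lies above its square, as for Lhx2 given Emx2 (18.8% and 12.7%), while at equal depth the intervals of each pair overlap.

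Dorsal genes outside the rule were sparse, and few could be read one by one. A gene was called when it had 100 or more UMIs over both groups and its whole ratio interval lay above 1.2 or below the inverse, 0.833. Of 28 further dorsal genes looked for, 25 were in the table, and 11 of these had no UMI in the 409 selected cells even in full counts. In the 1773 comparison cells 5 of the 25 had none, and 2 had none in either group. Genes at 0 in the selected cells included Fezf2, a gene of cortical progenitors and deep-layer neurons, and Tbr1, a gene of young cortical neurons. Each of these 2 had at most 2 UMIs in the comparison cells. Of the 4 genes with enough UMIs 0 were called, with a median ratio of 0.955. Over all 6323 genes with enough UMIs, 1.27% were called higher and 0.269% lower, so that 0 of 4 says nothing particular to the list. Nfia and Nfib, nuclear factor I genes active throughout radial glia, gave 532 of the list's 614 thinned UMIs, at 0.959 times the comparison level (0.871 to 1.05). The other 23 genes gave 82 UMIs, at 100.2 CPM against 99.6 CPM, a ratio of 1.01 (0.782 to 1.28). Within the list Wnt7a, a Wnt ligand gene of the ventricular zone, had a ratio of 1.197 (0.765 to 1.82) and Nr2f1, a regulator of cortical area identity, 0.788 (0.449 to 1.31). Eomes or Neurog2, markers of cortical intermediate progenitors and neurogenesis, had a UMI in full counts in 2 of the 409 cells (0.489%, 0.0593 to 1.76) and in 0 of the comparison cells (up to 0.169%).

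Ventral genes were present in the selected cells as in the rest. At equal depth Olig1 or Olig2 was found in 91.2% of selected cells (88.0 to 93.8) and 93.5% of comparison cells (92.3 to 94.6). Olig1 stood at 1153 CPM in the selected cells and 1408 CPM in the comparison cells, a ratio of 0.819 (0.763 to 0.878), and Olig2 at 595 and 678 CPM, a ratio of 0.877 (0.794 to 0.968). Neither was called lower at the threshold of 0.833. The sum of both was at 0.882 (0.820 to 0.950) in cells matched on depth. The 25 other measured ventral genes outside the rule were at 1.04 (0.921 to 1.18). Nkx2-2, a gene of ventral midline progenitors and the oligodendrocyte lineage, had 5 UMIs in the selected cells and 62 in the comparison cells, a ratio of 0.350 (0.110 to 0.861) from too few UMIs to be called.

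The 3 ventral genes of the rule were read before cells with them were left out. Nkx2-1, Dlx1 and Dlx2 together stood at 14.5 CPM in the 448 cells with 2 or more dorsal UMIs and at 12.9 CPM in the 1863 cells with none, a ratio of 1.13 (0.560 to 2.11). Ventral UMIs were found in 39 of the 448 cells (8.71%, 6.26 to 11.7) and in 90 of the 1863 (4.83%, 3.90 to 5.91) in full counts, and in 2.68% (1.39 to 4.63) and 2.42% (1.77 to 3.22) at equal depth. In 417 pairs matched on depth the ratio was 1.86 (0.689 to 5.50), from 13 and 7 UMIs. In full counts of these pairs it was 1.74 (1.09 to 2.85), from 52 and 29 UMIs. Dorsal and ventral transcripts were therefore not seen to avoid each other in these cells, though the interval without matching reaches from 0.560 to 2.11.

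Mitotic genes were the largest listed group among the genes higher in the selected cells. Of 6323 genes with enough UMIs, 80 were called higher (1.27%) and 17 lower (0.269%), and the G2 and M phase list held 32 of the 80. Of its 55 genes with enough UMIs, 32 were called higher and 0 lower, with a median ratio of 1.61 against 1 over all 6323 genes. The S phase list had 1 of 39 genes called higher, Rrm2, the small subunit of ribonucleotide reductase, and a median of 1.13. In cells matched on depth, 29 of 3117 genes were called higher (0.93%) and 4 lower (0.128%), and 16 of the 29 were G2 and M phase genes. Of the 80 genes, 77 had a ratio above 1.2 in matched cells and 25 were called there too.

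Several of the highest ratios belonged to genes of the spindle, the kinetochore and cytokinesis. Cep55, which directs the final cut between daughter cells, stood at 85.6 CPM in the selected cells and 35.5 CPM in the comparison cells, 2.41 times higher (1.77 to 3.25), and was found in 15.4% and 5.81% of cells. Kif18a, a kinesin that aligns chromosomes, was at 113.7 and 47.7 CPM, 2.39 times higher (1.83 to 3.09). Ube2c, which encodes the ubiquitin-conjugating enzyme of the anaphase-promoting complex, was at 493 and 230 CPM, 2.15 times higher (1.90 to 2.42). Top2a, the gene of the topoisomerase that untangles sister chromatids, was at 603 and 303 CPM, 1.99 times higher (1.78 to 2.21). All 4 were also above 1.2 in matched cells, at 2.56, 1.91, 1.69 and 1.49 times. Others called higher were the checkpoint kinase gene Bub1b (2.10 times), the kinetochore gene Ndc80 (2.02), the spindle kinase gene Aurka (2.02), the spindle gene Nusap1 (2.03), the shugoshin gene Sgol1 (2.22) and Cdca2 (2.03). Mki67, the gene of a proliferation antigen, was at 1.73 times (1.503 to 1.98), Cdk1, the mitotic kinase, at 1.83 (1.6 to 2.08) and Ccnb1, cyclin B1, at 1.84 (1.53 to 2.20). Other genes with high ratios were the phosphofructokinase gene Pfkp (2.20, from 40 and 79 UMIs), Ttc37 (2.23, from 36 and 70 UMIs), Nrm, of the nuclear envelope (2.29), and the tubulin gene Tuba1c (2.03).

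The genes called lower were mostly of low level. The most abundant of them were Egr1, an immediate early gene, at 171 CPM against 250 CPM (0.685, 0.569 to 0.820), Gstm5, a glutathione transferase gene, at 149 against 226 CPM (0.661, 0.542 to 0.801), Trp53i11 at 155 against 227 CPM (0.683, 0.562 to 0.825) and Dusp6, a feedback phosphatase gene of ERK signalling, at 146 against 219 CPM (0.665, 0.543 to 0.807). The lowest ratios were those of Arpp21 (0.378, 0.197 to 0.667), Ints4, Qpct and Pou3f1, a POU factor gene, at 0.411, 0.411 and 0.413 from 9, 9 and 16 UMIs in the selected cells. In matched cells the intervals of Arpp21 (0.285 to 1.295), Qpct (0.219 to 1.352) and Egr1 (0.638 to 1.02) include 1. Those of Ints4 (0.153 to 0.836) and Pou3f1 (0.184 to 0.626) do not. Of the 17 genes, 15 lay below 0.833 in matched cells and 1, Gstm5, was called there. Pou3f1, Bloc1s5, Stambpl1, Tmem259 and Hpcal1 also had whole intervals below 0.833 in matched cells. They had too few UMIs there to be called. Hpcal1, a calcium sensor gene, was at 0.501 (0.320 to 0.754), and at 0.429 (0.254 to 0.703) in matched cells.

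Among other cell type lists, the summed level of immature neuron genes was lower in the selected cells and that of radial glia genes alike. Radial glia genes, among them Fabp7, Vim, Nes and Sox2, were at 1.01 times (0.994 to 1.03), and 0 of 17 measured with enough UMIs were called, against 1.27% higher and 0.269% lower over all genes. Sox2 was found in 55.7% of selected and 55.4% of comparison cells at equal depth, and Fabp7 in all 409 selected cells. Immature neuron genes were at 0.813 (0.747 to 0.884) and at 0.802 (0.720 to 0.892) in matched cells. Only 3 of these 14 genes had enough UMIs, and 0 were called, against the same shares over all genes. Their ratios ran from 0.818 to 1.28, with 1 above 1. Intermediate progenitor genes were at 0.856 (0.768 to 0.952), but at 0.936 (0.814 to 1.08) in matched cells, an interval that includes 1. Oligodendrocyte lineage genes, a list that holds Olig1 and Olig2, were at 0.822 (0.780 to 0.867), and at 0.878 (0.820 to 0.941) in matched cells. Astrocyte genes were at 1.03 (0.976 to 1.08), and at 1.13 (1.05 to 1.21) in matched cells. A list of 12 forebrain-wide genes was at 1.17 (1.02 to 1.33), and at 1.23 (1.03 to 1.48) in matched cells. In pairs matched on cell cycle UMIs as well, described below, that list was at 0.935 (0.774 to 1.13), an interval that includes 1. Inhibitory neuron genes had 6 UMIs in the selected cells and 95 in the comparison cells, a ratio of 0.274 (0.0980 to 0.618). In matched cells the UMIs were 5 and 12, a ratio of 0.417 (0.115 to 1.27) whose interval includes 1. Of the microglial list, 4 of 10 genes were in the table, with 0 UMIs in the selected cells. Immediate early genes were at 0.893 (0.839 to 0.951).

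**Figure D3:**
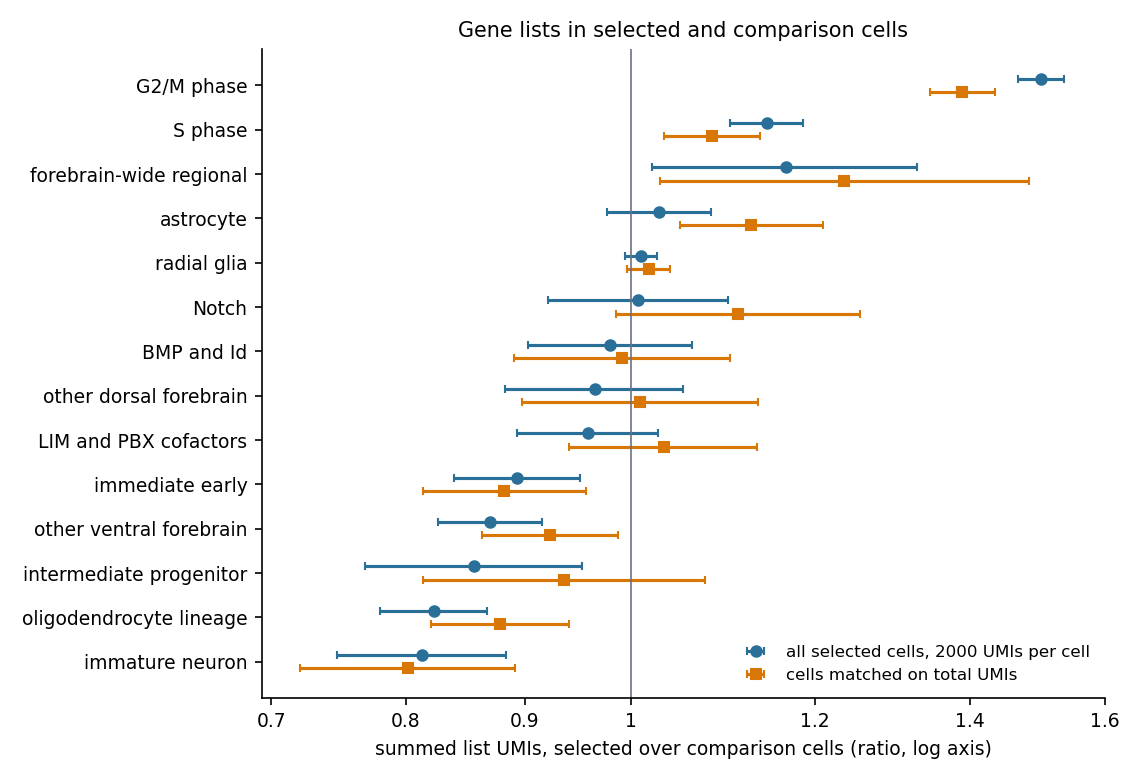
Ratio of the summed UMIs of 14 gene lists in the selected cells to those in the comparison cells (horizontal log axis), with every cell at 2000 UMIs (circles) and in pairs matched on total UMIs (squares); bars are 95% counting intervals. The G2/M list stands highest, at 1.502 and 1.39, and other dorsal forebrain genes lie at 0.965 and 1.01. Most UMIs of that dorsal list came from Nfia and Nfib.

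The G2 and M phase level was higher in cells with more dorsal UMIs, and higher in selected than in comparison cells in each band of depth. Cells with 0, 1, 2, 3 and 4 or more UMIs of the 3 genes stood at 7945, 9694, 10962, 13167 and 14500 CPM of the list. Just outside the rule, the cells with 1 UMI were at 1.22 times the comparison level (1.19 to 1.25), and just inside it those with 2 UMIs were at 1.38 times (1.34 to 1.42). Median depth moved with these grades, from 3953 UMIs at 0 to 10531 at 4 or more. With cells matched on depth the ratios for 1, 2, 3 and 4 or more UMIs were 1.16, 1.25, 1.34 and 1.32. Within bands of depth, the selected cells stood above the comparison cells by 1.21 times (1.11 to 1.33) at 2000 to 3000 UMIs, 1.15 (1.09 to 1.21) at 3000 to 5000, 1.23 (1.18 to 1.28) at 5000 to 8000 and 1.57 (1.5 to 1.65) at 8000 or more. The last band holds the deepest barcodes, in which droplets with more than 1 cell could lie, and whether they do was not tested. Without the deepest 5% of cells the ratio of all S and G2/M genes was 1.34 (1.31 to 1.37), against 1.38 (1.36 to 1.41) with them.

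**Figure D4:**
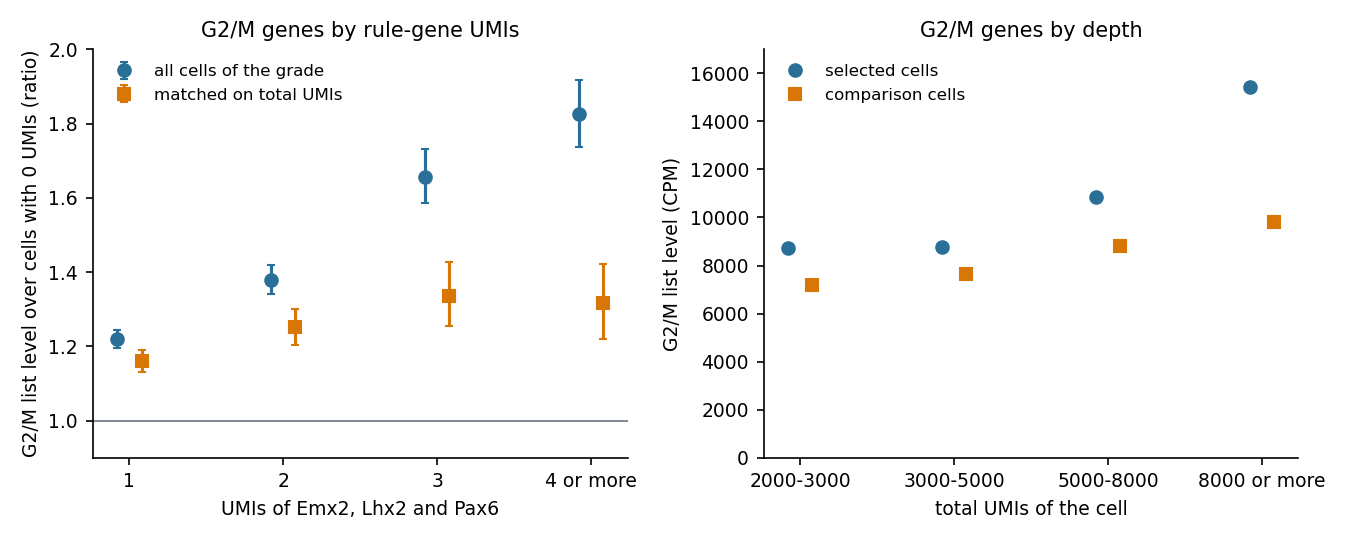
Left: level of the G2/M list relative to cells with 0 UMIs of the 3 genes (vertical axis), by the UMIs of the 3 genes, for all cells of a grade (circles) and for cells matched on total UMIs (squares), with 95% counting intervals. Right: level of the list in CPM by total UMIs of the cell, for selected (circles) and comparison cells (squares); selected cells lie higher in each of the 4 bands, with ratios of 1.15 to 1.57.

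Cells chosen by each gene alone showed the same direction. The G2 and M phase ratio was 1.39 (1.34 to 1.45) in the 137 cells with Emx2 only, 1.2 (1.105 to 1.30) in the 32 with Lhx2 only, 1.71 (1.57 to 1.86) in the 20 with Pax6 only and 1.59 (1.55 to 1.64) in the 220 with more than 1 gene. In pairs matched on depth these were 1.26, 1.15, 1.18 and 1.37. A UMI of any of 6 proliferation genes (Ube2c, Pcna, Rrm2, Top2a, Mki67 or Cdk1) was found at equal depth in 84.1% of selected cells (80.2 to 87.5), 71.2% of comparison cells (69.0 to 73.3) and 64.0% of the 25 neuronal cells (42.5 to 82.0). In matched cells the shares were 83.6% and 74.0%. The neuronal cells include 4 of the selected and 10 of the comparison cells. Per cell, S and G2/M genes supplied a median of 33 of 2000 UMIs in the selected cells, with quartiles of 16 and 47, and 19 in the comparison cells, with quartiles of 9 and 36. The 2 distributions overlapped over nearly their whole range, from 1 to 89 and from 1 to 88.

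The relation was also read in the other direction, over all cells of the table past the filters, in 4 groups of like size ordered by their G2 and M phase UMIs. Emx2 stood at 48.9, 47.3, 57.8 and 76.0 CPM from the lowest to the highest group, and the highest was 1.55 times the lowest (1.15 to 2.12). Pax6 stood at 12.6, 15.1, 22.7 and 22.7 CPM, a ratio of 1.81 (0.997 to 3.39) from 35 and 18 UMIs. Lhx2 stood at 23.7, 32.9, 37.0 and 29.9 CPM, a ratio of 1.26 (0.790 to 2.02). Olig1 went the other way, at 1726, 1597, 1217 and 868 CPM, a ratio of 0.503 (0.470 to 0.538), as did Olig2, at 781 and 558 CPM in the outer groups, a ratio of 0.715 (0.654 to 0.782). Median depth moved with this order too, from 4092 to 5458 UMIs. Ordered by S phase UMIs instead, Emx2 stood at 49.0, 61.4, 65.9 and 53.6 CPM, and the highest group was at 1.09 times the lowest (0.783 to 1.54). In that order the highest group of Lhx2 was at 1.63 times the lowest (1.02 to 2.67). That of Pax6 was at 1.30 times (0.752 to 2.30).

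**Figure D5:**
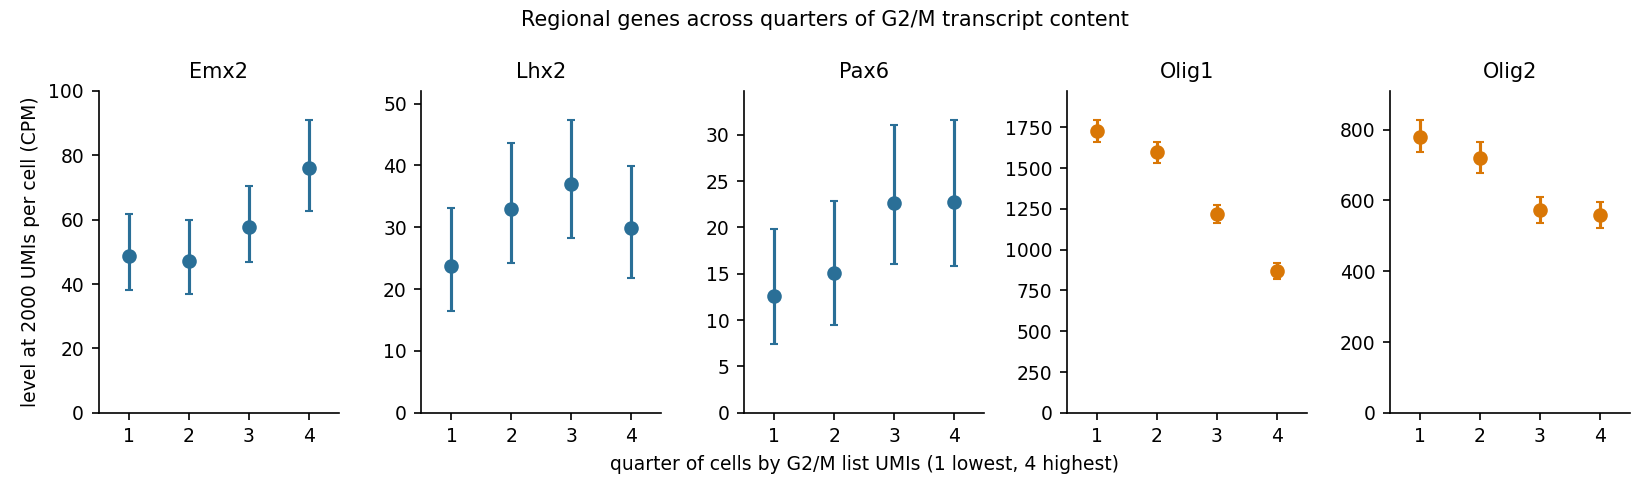
Level of 5 regional genes in CPM at 2000 UMIs per cell (vertical axes, each from 0 on its own scale) in 4 groups of cells ordered by G2/M list UMIs (horizontal axes), with 95% Poisson intervals. Emx2 is highest in the top group, at 76.0 CPM, and Olig1 lowest there, at 868 CPM.

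When selected and comparison cells were paired on both depth and S and G2/M UMIs, a setting chosen after these values were seen, 9 genes were called. In 341 such pairs, which differed by at most 3 cell cycle UMIs of 2000, 3 of 2787 genes were called higher (Jam2, Mrpl48 and Sfswap) and 6 lower (Dph6, Eif3l, Hbegf, Ntrk2, Rbmx and Ttyh3). Only 1 of these 9, Sfswap, was among the genes called at equal depth. Fewer genes had enough UMIs to be called here, 2787 against 6323 at equal depth. As a value, 33 of the 80 genes called higher at equal depth stayed above 1.2, and 15 of the 17 called lower stayed below 0.833. The pairing holds the summed level of S and G2/M genes near 1 by construction, but not that of each phase or gene. G2/M genes were at 1.039 (1.005 to 1.074) and S phase genes at 0.927 (0.883 to 0.974). Ube2c and Top2a were at 1.04 and 1.02 times. Of the same list, Bub1b was at 1.375 (0.852 to 2.24), Ndc80 at 1.421 (0.921 to 2.21) and Ccnb1 at 0.949 (0.726 to 1.24). Olig1 and Olig2 together were at 0.923 (0.853 to 0.998), other dorsal genes at 0.948 (0.839 to 1.07) and immature neuron genes at 0.872 (0.779 to 0.976). Pou3f1 remained low, at 0.419 (0.201 to 0.825), as did Hpcal1, at 0.415 (0.240 to 0.694).

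The selected cells were mixed with the other cells in expression space. The space was built without the rule genes, the genes of the S and G2/M lists, and mitochondrial and ribosomal protein genes. Mitotic genes outside these lists, such as Cep55 and Kif18a, were not removed beforehand. Among the 15 nearest cells of a selected cell, 15.4% were selected against 13.4% of all cells, a ratio of 1.15 (1.09 to 1.22). In the space of the matched pairs, where 50.0% of cells were selected, 50.6% of the neighbours of selected cells were selected, a ratio of 1.01 (0.986 to 1.04), and 45.9% of the neighbours of comparison cells. Both intervals count every neighbour as separate although selected cells share neighbours, so they are likely too narrow.

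The promoters of 2 of the leading mitotic genes are shown because they carry the letters known from genes switched on late in the cell cycle, and that of Pax6 as one of the genes of the rule. Many late cell cycle promoters hold a cell cycle genes homology region (CHR), read by the DREAM and MuvB complexes, and CCAAT boxes, bound by NF-Y. The sequences are those of RefSeq on build GRCm38.p6, before the annotated start of transcription. The Ube2c stretch is chr2:164769679-164769917 on the plus strand, the Top2a stretch chr11:99024190-99024439 on the minus strand and the Pax6 stretch chr2:105668646-105668895 on the plus strand. The first ends 12 bases before the start and its last 20 bases lie inside the longer gene model of GENCODE. Capitals mark TTTGAA or TTCAAA (the CHR letters on either strand) and CCAAT or ATTGG (the CCAAT box on either strand), and 2 of these overlap as CCAATTGG in Ube2c.
Ube2c: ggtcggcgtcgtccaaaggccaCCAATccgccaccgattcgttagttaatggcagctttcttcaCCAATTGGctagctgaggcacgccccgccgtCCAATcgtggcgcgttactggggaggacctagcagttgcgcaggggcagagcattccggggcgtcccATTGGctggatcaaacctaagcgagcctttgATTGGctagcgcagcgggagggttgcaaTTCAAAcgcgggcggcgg
Top2a: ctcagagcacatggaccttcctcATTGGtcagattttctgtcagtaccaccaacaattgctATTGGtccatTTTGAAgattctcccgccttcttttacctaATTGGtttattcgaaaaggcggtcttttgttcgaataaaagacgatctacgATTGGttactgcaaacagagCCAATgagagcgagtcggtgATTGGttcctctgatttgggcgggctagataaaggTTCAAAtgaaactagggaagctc
Pax6: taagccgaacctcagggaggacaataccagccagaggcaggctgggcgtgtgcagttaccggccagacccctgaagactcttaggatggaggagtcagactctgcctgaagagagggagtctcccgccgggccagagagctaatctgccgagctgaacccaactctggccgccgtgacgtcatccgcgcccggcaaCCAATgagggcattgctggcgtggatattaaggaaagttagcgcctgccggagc

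The Ube2c stretch holds TTCAAA from base -29 to -24 before the start and 6 CCAAT box matches. Top2a holds TTCAAA from -23 to -18, TTTGAA from -179 to -174 and 6 CCAAT box matches. The Pax6 stretch holds 1 CCAAT box match, from -54 to -50, and no CHR letters. Within 250 bases before a start, the CHR letters were found in 21 of the 61 genes called higher that had a promoter in the reference (34.4%), in 12.6% of 4824 genes with enough UMIs and in 18.3% of all 27025 genes there. Among the genes called lower, 3 of 11 held the CHR letters (27.3%) and 5 of 11 those of the CCAAT box (45.5%). CCAAT box letters were found in 43 of the 61 (70.5%), in 41.3% of the 4824 and in 37.5% of all. TAATTA, a core of homeodomain binding sites, was found in 2 of the 61 (3.28%), in 2.61% of the 4824 and in 5.65% of all. These are matches of letters, and binding was not measured.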

How the data were processed

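Values are UMI counts as deposited, whole numbers without normalization, for 19144 genes in 4000 barcodes of 12 bases. Per the submitters' processing notes the build was mm10; aligner, counting program and barcode selection: not given in the sources used here. In all, 132 barcodes had under 500 genes, 148 had over 10% mitochondrial UMIs, and 710 that passed both had under 2000 UMIs. The 3055 kept held 16451233 UMIs. The selected cells and the 28 gene lists (429 of 465 genes in the table) were chosen with earlier results of these data known.

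Cells were thinned without replacement to 2000 UMIs (seed 0), since deeper cells meet the rule more often. Ratios are of summed UMIs with exact conditional binomial intervals. Shares have exact binomial (Clopper-Pearson) and levels exact Poisson intervals, all at 95%, and a count of 0 allows up to 3. Neighbours were taken in 30 principal components of 2000 variable genes. Genes named were those of the lists, and the 15 highest and 15 lowest ratios among called genes that also passed 1.2 or its inverse as a value in matched cells. Jam2, Mrpl48, Sfswap, Dph6, Eif3l, Hbegf, Ntrk2, Rbmx and Ttyh3 were named after their values were seen. Some genes that the rule names are not reported here. No doublet caller was used and no cell was removed as a doublet. Alternatives in filters, rule, thinning, matching and thresholds were computed. The ratio script was tested on simulated data. Tools were scikit-learn 1.9.0, scipy 1.17.1, numpy 2.4.6, pandas 2.3.3 and matplotlib 3.10.9 under Python 3.11.15.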

Additional observations from a re-analysis of the deposited data

How the results depend on the processing

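Of 181 values recomputed under other settings, 131 stayed within the counting interval of the reported value (or within 1.5 times of a count of genes), 49 moved and 1 reversed; the cause was not tested. The 3 held-out gene ratios and the ventral ratio before exclusion stayed within theirs throughout. The share of selected cells was 15.6% at 3000 UMIs, 2.52% with the rule on thinned counts, 4.71% with 3 or more UMIs, 7.20% with 2 of the 3 genes, 14.7% with ventral cells kept, 8.75% among cells low in cell cycle genes and 11.85% without the deepest 5%. Genes called higher were 180 in unthinned counts, 29 matched on depth, 44 with the rule on thinned counts, 9 in low-cycle cells, 3 matched on depth and cycle, 23 at a fold of 1.5 and 401 at a fold of 1. Genes called lower were 65, 4 and 30 under the first 3 of these, 37 with 3 or more UMIs, 11 without the deepest cells, 6 matched on depth and cycle, 0 at a fold of 1.5, 266 at a fold of 1 and 37 with a minimum of 50 UMIs.

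The cell cycle ratio of 1.38 was 1.45 unthinned, 1.29 matched on depth (1.31 in full counts), 1.13 with the rule on thinned counts, 1.54 with 3 or more UMIs, 1.44 with 2 of 3 genes, 1.355 without barcodes ending in an unread base, 1.04 in low-cycle cells, 1.34 without the deepest cells and 1.002 matched on depth and cycle. The last setting fixes that ratio near 1 by construction. The low-cycle setting keeps only cells below the median of cell cycle UMIs, which narrows how far the groups can differ. Other dorsal genes were at 1.055 in full counts matched on depth and 1.1 with the rule on thinned counts. Other ventral genes were at 0.923 and, in full counts, 0.9215 matched on depth, 0.982 in low-cycle cells and 0.929 matched on depth and cycle. Olig1 and Olig2 were at 0.790 with 2 of 3 genes, 0.991 in low-cycle cells and 0.923 matched on depth and cycle. The neighbour ratio was 1.56 unthinned, 1.01 matched on depth (1.01 in full counts), 1.03 at 3000 UMIs, 1.06 with 3 or more UMIs, 1.065 with 2 of 3 genes, 1.04 matched on depth and cycle, and 0.859, on the other side of 1, with the rule on thinned counts. Matching on depth and cycle was chosen after the data were seen. No paired analysis was possible because barcodes carry no sample. The held-out readings rest on 13 to 19 UMIs in the chosen cells.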
